A study of Mus musculus with 2 samples.

Results

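The genes described here are 10 members of the transforming growth factor beta (TGF-beta) family and its signalling chain in mouse Peyer's patches. They were taken by name: all non-control probes annotated as Tgfb1, Tgfb2, Tgfb3, Inhba, Bmp2, Tgfbr1, Acvrl1, Tgfbr2, Tgfbr3 or Smad7, which gave 17 of 56605 probes and 10 of 24813 named genes on the array. Both samples came from C57BL/6 mice carrying an S100A4-GFP transgene. Peyer's patches are lymphoid tissue in the wall of the small intestine; they were digested with enzymes and the cells were sorted by the reporter into S100A4-positive and S100A4-negative cells, with 1 array per group. S100A4 is a small calcium-binding protein, and both groups carry the reporter. The animals' age, the number of animals pooled and the promoter behind the reporter are not stated in the sources used here. The question was how the expression profile differs between the fractions.

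TGF-beta family ligands are secreted dimers that bind a type II receptor, which recruits and activates a type I receptor. Activated type I receptors phosphorylate SMAD proteins that carry the signal to the nucleus, and co-receptors such as betaglycan and endoglin present ligand. In gut lymphoid tissue TGF-beta is best known for directing B cells to switch to IgA and for supporting regulatory and tissue-resident T cells.

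Each fraction was measured on 1 array, so no difference below has a test or a check in replicates. An error after ± is what the scanner software gives for a spot, and every member probe was spotted once. Such errors hold nothing of how animals, sorts or labelling reactions vary. Differences are log2 values, S100A4-positive minus S100A4-negative, with the 75th percentile of each array set to 0. A probe that was well above background on 1 array alone has only a bound, given as "at least", and counts at that bound. Of 59305 non-control spots, 53.3% in S100A4-negative and 52.3% in S100A4-positive cells passed the background criterion, and none was saturated. S100a4 itself read 1057 and 119300 on the negative and positive array, a difference of 7.43 ± 0.20 or 173-fold. Marker RNA differed between the fractions: all 8 B cell markers and all 7 measured T cell markers were lower by 2-fold or more among S100A4-positive cells, where all 10 macrophage and monocyte markers and all 6 innate lymphoid markers were higher by 2-fold or more. In such bulk samples fewer cells of a type and less RNA per cell cannot be told apart.

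Some of the member probes are shown here, 5′ to 3′, as designed. Those of Tgfb1, Tgfb2, Inhba and Bmp2 gave the values of their genes, whereas those of Acvrl1 and Tgfbr1 are further probes of genes whose values below come from a brighter one. The Tgfb1 and Tgfb2 probes are shown because these ligand genes are related and read differently in the fractions. Capitals mark the bases that are identical when the Tgfb1 and Tgfb2 probes are set against each other without gaps, 28 of 41 aligned bases (68.3%). In the Bmp2 and the last Tgfbr1 sequence, of which 30 of 60 bases are shown, capitals mark AATAAA, the usual polyadenylation signal. The Inhba, Acvrl1 and first Tgfbr1 probes are shown whole, with nothing marked.
Tgfb1 (A_51_P390715): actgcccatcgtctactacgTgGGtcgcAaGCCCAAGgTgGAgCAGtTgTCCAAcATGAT
Tgfb2 (A_65_P10913): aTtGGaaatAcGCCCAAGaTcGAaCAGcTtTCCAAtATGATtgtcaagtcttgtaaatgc
Inhba (A_51_P239750): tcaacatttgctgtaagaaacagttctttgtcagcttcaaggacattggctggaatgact
Acvrl1 (A_52_P279329): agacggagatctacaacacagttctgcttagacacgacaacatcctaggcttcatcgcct
Tgfbr1 (A_51_P280137): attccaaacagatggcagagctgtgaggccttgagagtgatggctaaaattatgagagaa
Bmp2 (A_55_P2041961): gccaaagtactaAATAAAatataatatttc
Tgfbr1 (A_55_P1960906): aagtgcatggtaAATAAAgtggcagactgt

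No member probe shared a run of 20 bases with any other probe of the array. The longest run shared by member probes of different genes was 9 bases, over 126 pairs. AATAAA was present on the probe strand in 3 of the 17 member probes (Bmp2, Tgfbr1 and Smad7) against 9.77% of all 56605 probes, and its reverse complement TTTATT in 2 (Bmp2 and Tgfbr2) against 3.85%. The median GC content was 36.7% over the member probes and 41.7% over all probes. On the mm9 build that the array files use, the probes shown lie at chr7:26489877-26489936 (Tgfb1), chr1:188449333-188449392 (Tgfb2, minus strand), chr13:16118634-16118693 (Inhba) and chr2:133388260-133388319 (Bmp2). Each of these spans 60 bases. The Acvrl1 probe spans 293 bases of genome (chr15:100967514-100967806) and the first Tgfbr1 probe 3659 bases (chr4:47419898-47423556), so these 60-base probes are listed across more genome than their own length. The exons they lie in were not analysed here.

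**Figure D1:**
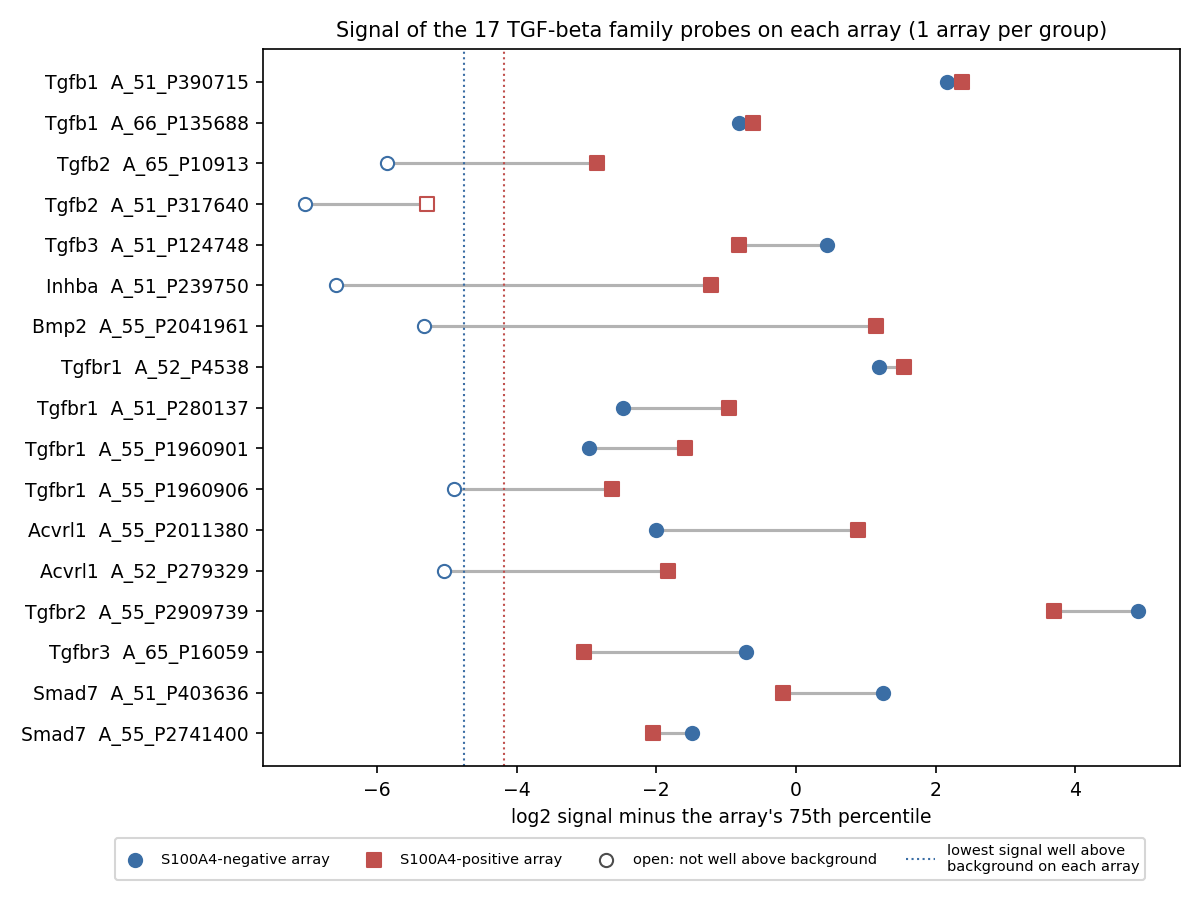
Log2 signal of each of the 17 probes relative to the 75th percentile of its array, for the S100A4-negative array (circles) and the S100A4-positive array (squares), with open symbols for spots not well above background. Tgfb2, Inhba and Bmp2 are open on the negative array and filled on the positive array at 3 of their 4 probes; levels of different probes are not comparable with each other.

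The family was divided between the fractions. At the brightest probe of each gene, Bmp2, Inhba, Acvrl1 and Tgfb2 were at least 2-fold higher in the S100A4-positive fraction, Tgfbr3, Smad7, Tgfb3 and Tgfbr2 were at least 2-fold lower, and Tgfb1 and Tgfbr1 lay within 2-fold. That is 4 of 10 genes higher, where 21.0% of the 15245 genes measured on the arrays were, and 4 of 10 lower, where 17.5% of them were. The median of the 10 was 0.29, against 0.00 over all genes. By probe, 8 of the 16 member probes that either array detected were higher and 4 lower, against 20.4% and 15.1% of 31583 probes. Of the 4 genes that were higher, Bmp2, Inhba and Tgfb2 were well above background on the positive array alone.

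**Figure D2:**
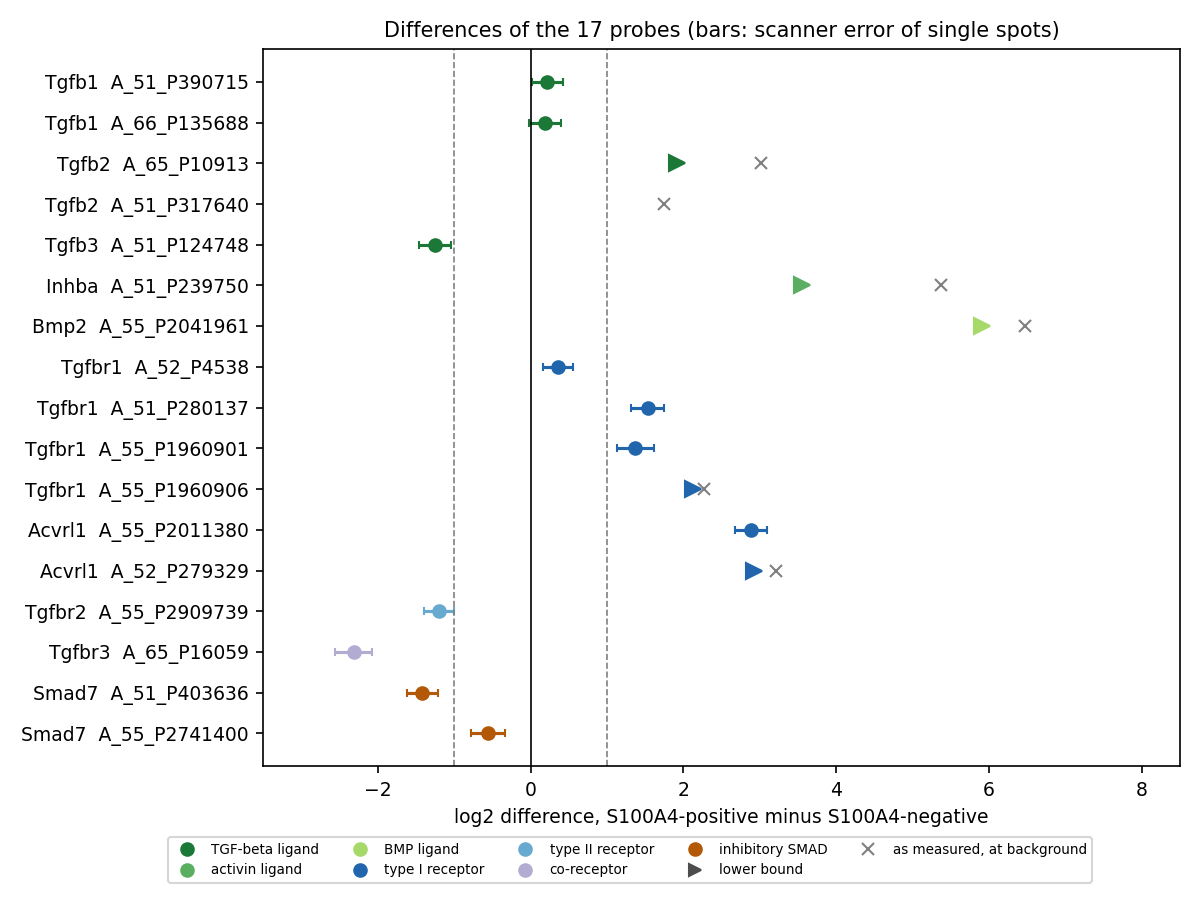
Log2 difference, S100A4-positive minus S100A4-negative, of each of the 17 probes, with scanner error bars where both arrays measured it, triangles at lower bounds and crosses at differences measured against a signal at background. Bmp2 stands farthest to the right with a bound of 5.91 and Tgfbr3 farthest to the left at -2.32, while both Tgfb1 probes lie next to 0.

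Among the TGF-beta ligands, each gene stood differently. Tgfb1, the isoform that leukocytes mainly make, read 1950 ± 195 in S100A4-negative and 1481 ± 148 in S100A4-positive cells at its brighter probe. After centring the difference was 0.22 ± 0.20. Its dimmer probe, at chr7:26477408-26477467, read 249.0 ± 25.1 and 185.1 ± 18.8, a difference of 0.19 ± 0.21. Both Tgfb1 probes therefore gave differences about the size of their spot error, and they differed from each other by 0.03.

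Tgfb2, an isoform better known from epithelium and stroma, was dim on both arrays. Its probe A_65_P10913 read 7.55 ± 3.46 on the negative array, under the lowest signal that was well above background there (16.1), and 39.67 ± 5.13 on the positive array. The difference was at least 1.91, or 3.76-fold. The other Tgfb2 probe, A_51_P317640, was not well above background on either array (3.341 ± 3.35 and 7.348 ± 3.29), so the Tgfb2 signal rests on 1 probe. Tgfb3 went the other way. Its only probe, on chr12:87397804-87397863 (minus strand), read 594.5 ± 59.5 in S100A4-negative and 163.1 ± 16.6 in S100A4-positive cells, a difference of -1.25 ± 0.21, or 2.38-fold lower in the positive fraction.

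On the 75th percentile scale the activin and BMP ligands had the widest differences of the family. For Inhba this did not hold after normexp background correction (1.81, with Acvrl1 at 2.31) or without scaling (2.93, with Tgfbr3 at -2.94). On the spike-in scale described below Tgfbr3, at -4.74, was the widest. Inhba, which encodes the beta A subunit of activin A, read 4.567 ± 3.96 on the negative array, a signal at background, and 123.3 ± 12.8 on the positive array. It was at least 11.7-fold higher in the positive fraction, a bound of 3.55 on the log2 scale. Bmp2, a bone morphogenetic protein that signals through BMP type I receptors, read 10.89 ± 3.41 in S100A4-negative and 633.4 ± 63.4 in S100A4-positive cells. That makes at least 60.1-fold, a bound of 5.91. Both genes have a single probe, and neither was well above background in S100A4-negative cells.

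The type I receptors differed from each other. Acvrl1, also called ALK1, is the type I receptor through which endothelial cells read circulating BMPs. Its brighter probe, A_55_P2011380 on chr15:100974010-100974069, read 109.0 ± 11.5 in S100A4-negative and 528.2 ± 52.9 in S100A4-positive cells. That is a difference of 2.89 ± 0.21, or 7.42-fold. The second Acvrl1 probe, shown above, read 13.31 ± 3.93 and 80.35 ± 8.95 and gave at least 7.62-fold, a bound, so both probes read higher in the positive fraction but their sizes cannot be compared.

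Tgfbr1, also called ALK5, is the type I receptor for TGF-beta itself, and its 4 probes disagreed. The brightest, A_52_P4538 on chr4:47427421-47427480, read 995.9 ± 99.7 and 835.3 ± 83.6, a difference of 0.36 ± 0.20. The probe A_51_P280137 read 78.05 ± 8.60 and 146.7 ± 15.2, a difference of 1.53 ± 0.22. The remaining probes are annotated to Ensembl transcripts alone. Of these, A_55_P1960901 gave 1.37 ± 0.24 and A_55_P1960906, at background in the negative fraction, at least 2.13. Thus 3 of 4 Tgfbr1 probes lay past 2-fold and the brightest did not, and with the median over the probes the gene stood at 1.45.

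Tgfbr2, the type II receptor that binds TGF-beta first, was lower in the positive fraction. It read 13050 ± 1300 in S100A4-negative and 3711 ± 371 in S100A4-positive cells at its single probe. The difference was -1.20 ± 0.20, or 2.30-fold. The array file lists this probe over only 10 bases (chr9:115996798-115996807), fewer than its own length, so its place in the gene is not settled here. Tgfbr3 encodes betaglycan, the co-receptor that presents TGF-beta to Tgfbr2 and also binds inhibin. It read 267.4 ± 26.9 and 34.92 ± 4.70 at its probe on chr5:107535818-107535877 (minus strand), a difference of -2.32 ± 0.24 or 5.0-fold lower. Among the members, Tgfbr2 and Tgfbr3 were thus both lower in S100A4-positive cells, each at a single probe. This does not hold for the co-receptors as a whole, since Eng and Nrp1, given below, were higher.

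Smad7 encodes the inhibitory SMAD that TGF-beta signalling induces and that blocks the type I receptor. Its brighter probe, A_51_P403636, read 1033 ± 103 in S100A4-negative and 251.6 ± 25.4 in S100A4-positive cells, a difference of -1.42 ± 0.20 or 2.68-fold lower. The other probe, A_55_P2741400, read 155.6 ± 15.9 and 69.12 ± 7.66, and its difference of -0.56 ± 0.22 lay within 2-fold. Both were below 0, but the median of the pair, -0.99, just missed 2-fold.

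Several cell type marker lists also differed between the fractions. Of 12 blood and lymphatic endothelial markers, among which Acvrl1 is not counted, 8 were higher by 2-fold or more and none was lower by as much. All of the higher ones but Eng were seen on the positive array alone and count at bounds. Only 3 markers were measured on both arrays, Eng, Egfl7 (0.96) and Pecam1. The summed signal of the 10 detected ones was 1.06 times the 75th percentile on the negative and 4.96 times on the positive array. This sum and those below take signals as read, including those not well above background, and use no bounds. The endothelial receptor genes Tek and Tie1 were not well above background on either array, and Pecam1 was at -0.27 ± 0.21. Of 10 fibroblast markers 6 were higher and 1 lower, with summed signals of 27.3 and 115 and with Pdgfra not well above background on either array. The brightest of them, Thy1 (8079 and 21370) and Vim (3364 and 9486), are expressed by other cell types too, and the collagen genes were on the other side of 0, with Col1a1 at a bound of -1.18, Col1a2 at -0.80 and Col3a1 at -0.53. Macrophage and monocyte markers summed to 9.07 in S100A4-negative and 575 in S100A4-positive cells, and classical dendritic cell markers, 6 of 7 at least 2-fold higher and Xcr1 not detected, to 7.01 and 90.9.

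The B cell, T cell and enterocyte markers were mostly lower in the S100A4-positive fraction. B cell markers summed to 567 in S100A4-negative and 55.0 in S100A4-positive cells and T cell markers to 154 and 15.1. Of 8 enterocyte markers 6 were lower by 2-fold or more, with Cdh1 higher and sums of 31.3 and 4.25. The regulatory T cell list was divided, with Il2ra at 4.04, Lrrc32 at -1.01 and Foxp3 at -0.98. Innate lymphoid markers summed to 11.5 and 353, with Il22 (a signal of 56800) the largest part of the sum in S100A4-positive cells. M cell markers, 4 of 6 higher, Spib lower and Gp2 seen on the positive array alone, summed to 39.6 and 78.5. Those of pericytes and smooth muscle, 1 of 4 detected higher and Des, Cspg4 and Rgs5 not detected, summed to 27.2 and 31.6. The part of any of these cell types in the differences of the family was not tested.

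The rest of the pathway was counted from lists of other genes, all of them on the array. Of these, 34 were at least 2-fold higher in the positive fraction, 9 were at least 2-fold lower, 32 lay within 2-fold and 32 were well above background on neither array. Of the 75 detected genes 45.3% were higher, against 21.0% of all genes measured, and 9 were lower, against 17.5%. Their median was 0.87, against 0.00. Of the genes counted as higher 7, and of those counted as lower 3, were seen on 1 array alone.

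**Figure D3:**
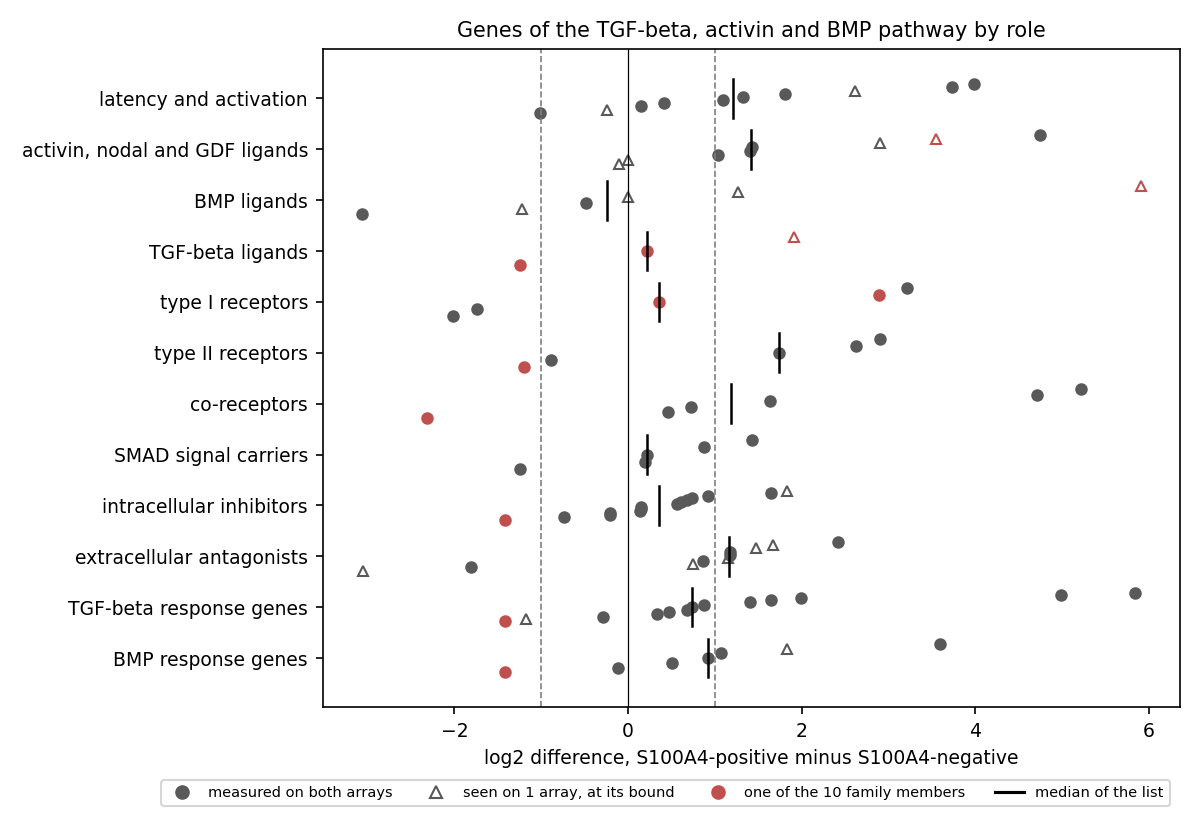
Log2 difference, S100A4-positive minus S100A4-negative, of each detected gene by pathway list, with triangles at the bound for genes seen on 1 array, red for the 10 family members, bars at the list medians and dashed lines at 2-fold. The type II receptor list has the highest median, 1.74, with Tgfbr2 at its low end, and the BMP ligands the lowest, -0.24, with Bmp2 far to the right.

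TGF-beta is secreted in a latent complex and has to be released. Of 12 genes for latency and activation 6 were at least 2-fold higher and 1 lower. Thbs1, a matrix protein that activates latent TGF-beta, was 15.9-fold higher (83.35 and 863.4 on the negative and positive array). Ltbp3, a latent TGF-beta binding protein, was 13.3-fold higher and Itgb8, the integrin chain that pairs with alpha V to free TGF-beta, 3.49-fold higher. Ltbp2 was at least 6.15-fold higher. Lrrc32, which encodes the latent TGF-beta anchor GARP of regulatory T cells, stood at -1.01 ± 0.20, at the edge of 2-fold, while Nrros, the anchor of myeloid cells, stood at 0.15 ± 0.20.

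Other ligands differed as well. In the list of activin, nodal and GDF ligands, 6 of 14 genes including Inhba were higher by 2-fold or more, none was lower by as much and 6 were not detected. Gdf15, a stress-induced ligand, was 26.9-fold higher, Lefty1, an antagonist of nodal, 2.70-fold and Gdf3 2.67-fold, with another Gdf3 probe at 4.11 on the log2 scale. Gdf9 was at least 7.44-fold higher. Of 16 BMP ligand genes 10 were not detected. Besides Bmp2, Bmp4 was at least 2.42-fold higher, whereas Bmp7 was 8.40-fold lower (294.7 in S100A4-negative and 22.93 in S100A4-positive cells) and Gdf10 at least 2.33-fold lower.

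Among the receptors beyond the members, the activin and BMP receptors were mostly higher on the type II side. Acvr2b was 7.48-fold, Bmpr2 6.19-fold and Acvr2a 3.34-fold higher, although the 3 Bmpr2 probes ranged from 0.96 to 3.17. Tgfbr2 was the only one of the 5 listed type II receptors that was 2-fold lower. Of the type I receptors, Acvr1, a BMP receptor, was 9.35-fold higher, and Acvr1b, the activin receptor ALK4, and Bmpr1a were 4.05-fold and 3.35-fold lower, the other Acvr1b probe lying within 2-fold at -0.99. The co-receptor genes Nrp1 and Eng were 37.2-fold and 26.2-fold higher, with probes from 1.75 to 7.20 and from 0.98 to 4.71 on the log2 scale, and Rgmb was 3.11-fold higher, so Tgfbr3 was the only co-receptor of 6 detected that was 2-fold lower. Eng is also one of the endothelial markers given above.

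Most of the intracellular chain lay within 2-fold. Smad2, Smad3 and Smad4, which carry TGF-beta signals, stood at 0.20, 0.88 and 0.22, although the 4 Smad4 probes ranged from -0.09 to 1.29. Of the SMADs that carry BMP signals, Smad1 was 2.69-fold higher and Smad5 2.37-fold lower, its other probe being at -0.63, and Smad9 was not detected. Of 14 intracellular inhibitors 11 lay within 2-fold at their brightest probes. Other probes of these reached -1.26 for Tgif1, 2.59 for Skil and 1.42 for Tgif2. By the brightest probes Smad7 was the only lower one, with its other probe at -0.56. Ldlrad4 was 3.14-fold higher, with its other probe at 0.95, and Smad6, the inhibitory SMAD of the BMP branch, at least 3.55-fold higher. Of 16 extracellular antagonists 6 were higher, among them Nbl1 (5.34-fold), Dcn (2.27-fold), Fstl1 (2.25-fold), Grem1 (at least 3.19-fold) and Bmper (at least 2.78-fold), and 2 lower, Twsg1 (3.51-fold, the other probe at -0.28) and Sostdc1 (at least 8.30-fold).

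Genes known to respond to these ligands were mixed. Of 15 TGF-beta response genes 5 were at least 2-fold higher, 2 lower and 6 within 2-fold. Tgfbi, a matrix protein gene named for its induction by TGF-beta and also expressed by macrophages, was 57.3-fold higher (387.3 and 14490). The cell cycle inhibitor gene Cdkn1a was 31.9-fold higher, whereas Smad7 was lower and Col1a1 was at least 2.26-fold lower. The 3 detected Col1a1 probes ranged from -1.18 to -0.82, so not all were past 2-fold. Itgae, the integrin chain of tissue-resident T cells, stood at -0.29 ± 0.20. Of 8 BMP response genes 3 were higher, Id2 (12.2-fold), Id1 (2.09-fold) and Smad6, and Id3 stood at -0.12 ± 0.20. Id2 is also a lineage gene of innate lymphoid cells.

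Directions depend on the scale. The spike-in control RNAs were 3.49-fold brighter on the positive array, and scaling on them in place of the 75th percentile shifted the median of all genes by -2.38. On that scale Bmp2 (3.49) and Inhba (1.13) were still at least 2-fold higher. Acvrl1 stood at 0.47, Tgfb1 at -2.20 and Tgfbr1 at -2.06, and the 4 genes lower before were lower still. The Tgfb2 bound came to 0.00, the smallest size a bound can take, so it gives no difference for Tgfb2 there. Of all genes past 2-fold, 54.5% were higher on the 75th percentile scale, 26.9% with no scaling and 4.69% on the spike-in scale. The sources used here do not give the amount of RNA labelled per array.

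**Figure D4:**
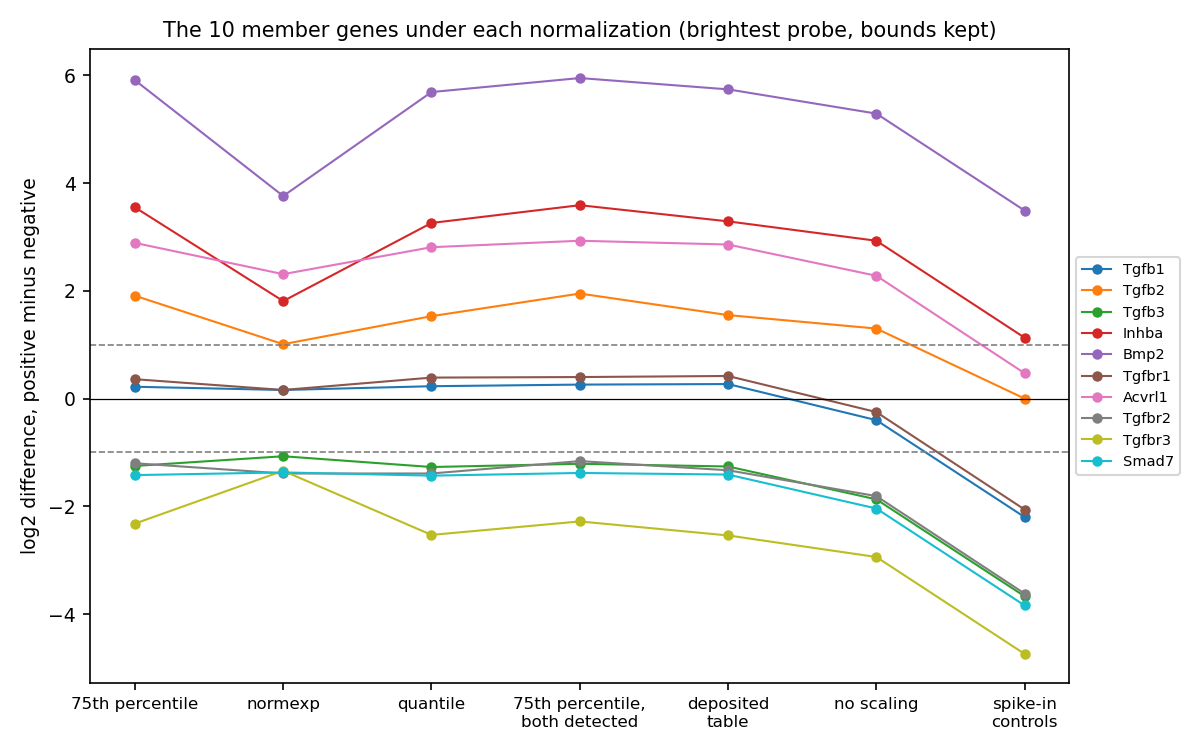
Log2 difference, S100A4-positive minus S100A4-negative, of the 10 genes under 7 normalizations, with lines joining the values of a gene and dashed lines at 2-fold. Bmp2 stays uppermost in all 7, and on the spike-in scale Tgfb1 and Tgfbr1 drop below -1.

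RefSeq promoter windows of the GRCm38.p6 build ran from 250 bases before to 50 after a gene's listed start. Those analysed here were of 5 of the 10 genes, 6 windows in all with 2 for Tgfbr1. No window of Smad7, Tgfb3, Bmp2, Acvrl1 or Tgfbr3 was searched, so the motif results below say nothing of these genes. The stretches before the start are shown for Tgfb1, which differed little between the fractions, and for Tgfb2 and Inhba, which were seen in the positive fraction alone. Capitals mark matches, on either strand, to a TATA motif (TATAAA), a GC box (GGGCGG) or an E-box (CACGTG). They lie at chr7:25686752-25687001 (plus strand), chr1:186705990-186706239 (minus strand) and chr13:16011601-16011850 (plus strand).
Tgfb1: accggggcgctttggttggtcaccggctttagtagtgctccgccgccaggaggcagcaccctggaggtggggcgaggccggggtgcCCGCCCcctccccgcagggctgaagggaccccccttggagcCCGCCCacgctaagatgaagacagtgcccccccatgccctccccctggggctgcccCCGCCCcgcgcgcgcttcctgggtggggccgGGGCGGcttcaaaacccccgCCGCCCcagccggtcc
Tgfb2: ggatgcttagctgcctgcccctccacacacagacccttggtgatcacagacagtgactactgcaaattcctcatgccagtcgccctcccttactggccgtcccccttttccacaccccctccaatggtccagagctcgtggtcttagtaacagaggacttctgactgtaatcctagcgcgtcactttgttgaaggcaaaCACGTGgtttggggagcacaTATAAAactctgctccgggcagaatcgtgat
Inhba: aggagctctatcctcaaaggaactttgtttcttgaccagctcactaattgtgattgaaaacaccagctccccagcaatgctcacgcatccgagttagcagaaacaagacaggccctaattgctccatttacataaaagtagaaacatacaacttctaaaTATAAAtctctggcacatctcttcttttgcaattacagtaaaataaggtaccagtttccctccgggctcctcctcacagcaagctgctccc

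The Tgfb1 window had a GC content of 77.0%, above 97.6% of the 32851 windows in the table, and the Tgfb2 and Inhba windows 54.3% and 47.7%, the median of all windows being 52.7%. TATAAA was found in the Tgfb2 window, 31 bases before the start, and in the Inhba window, 91 bases before it, and in 13.6% of all windows. GGGCGG was found in the Tgfb1 window and in 1 Tgfbr1 window, and in 35.7% of all, and CACGTG in the Tgfb2 window and in 7.15% of all. CCAAT was found in the windows of Tgfb2, Tgfbr1 and Tgfbr2, and in 37.4% of all. Of the short motifs that SMAD proteins are known to bind, CAGACA was found in the Tgfb2 window and in 1 Tgfbr1 window, and in 21.0% of all, and GGCGCC in 1 Tgfbr1 window and in 11.9%. GGAAAA, the core of NFAT sites, was found in the Tgfb2 window and in 23.4% of all. The other motifs were found in none of the 6 windows. They were the SMAD palindrome GTCTAGAC, present in 0.213% of all windows, and the cyclic AMP response motif TGACGTCA, present in 1.79%. The AP-1 motif TGACTCA was present in 5.20% of all windows and the NF-kB motif in 0.155%. The ETS motif CCGGAAG was present in 8.86% and the STAT motif TTCNNNGAA in 8.30%. All 13 motifs were searched on both strands, and a match or its absence describes these letters alone.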

How the data were processed

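Total RNA of both sorted fractions was amplified and labelled with Cy3, as the labels' protocols say, for 2 Agilent arrays of design 74809. Per the file headers, the authors extracted both with Agilent Feature Extraction 10.7.1.1 (the submitters' processing notes name 9.5.1.1), and the deposited intensity of each spot was background-subtracted and detrended but not normalized between arrays. The deposited flag columns, another kind of value, were used unaltered.

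Control spots and outlier spots (138 negative, 80 positive) were left out, intensities were put on the log2 scale, centred on each array's 75th percentile (436.4 and 285.0), and spots of a probe averaged. Probes were named through RefSeq accessions (32994), symbols (10224) or synonyms (520) of a GRCm38 gene table used for names alone; 12867 stayed unnamed. Members went by the files' own gene names. A gene took its probe with the highest mean signal among those well above background on at least 1 array. For a bound the dim side was set to its own signal or, if higher, to the lowest signal well above background there (16.1 and 15.7). A bound that would have changed sign was set to 0.

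A group of 1 array allows no test; a 2-fold size was used for counts, and the number of arrays limits the precision. Alternatives were normexp (offset 50) and quantile normalization (limma 3.58.1, R 4.3.3), other scalings and filters, the median over probes, and the deposited value table (56605 probes; linear, not centred, median 19.6 in both columns; its log2 values correlated with the scanner's at 0.9999 and 0.9998; how it was made is not given in these sources). Named pathway genes are, per list, up to 3 each way measured on both arrays and 2 seen on 1 array, largest first, except 1 gene that is not reported here; other pathway or marker genes named were chosen after their values were seen. The members and lists were chosen with earlier results of these data known. Steps were tested on simulated data for genes detected on both arrays, and the recovery of genes seen on 1 array was not simulated. Python 3.11.15, numpy 2.4.6 and pandas 2.3.3 were used.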

Additional observations from a re-analysis of the deposited data

How the results depend on the processing

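With 1 array per group, no replicate could be left out. No paired analysis was possible because the groups hold 1 array each. Of the recomputed counts of genes or probes past 2-fold, 49 stayed within 1.5 times the count given and 9 did not. On the spike-in scale the member genes that were higher numbered 2 in place of 4, the member probes 2 higher and 9 lower in place of 8 and 4, and the other pathway genes 8 higher and 48 lower in place of 34 and 9. On that scale 619 of all genes were higher and 12581 lower, in place of 3196 and 2665. With no scaling 21 other pathway genes and 1960 of all genes were higher. With probes detected on both arrays alone, 1 of the 7 member genes left (Acvrl1), 3 member probes and 2246 of all genes were higher. After normexp correction, whose offset compresses dim differences, 4 other pathway genes and 1803 of all genes were lower. Of the recomputed member differences 69 moved by less than their spot error, 28 by more, and none that was past 2-fold changed sign. For Bmp2, Inhba and Tgfb2 the sign could not change at a bound, which stops at 0. Some settings also could not alter some values, such as the median over probes for genes with 1 probe. Bmp2 ranged from 3.49 to 6.48 and Acvrl1 from 0.47 to 2.93 over these settings, while Tgfb2, at 1.01 after normexp correction, has the least signal over background to rest on.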
